A study of Danio rerio with 12 samples.

Results

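The posterior and the center presomitic mesoderm of the zebrafish embryo were compared gene by gene. The presomitic mesoderm (PSM) is the unsegmented tissue between the tailbud and the newest somite. The posterior PSM is the piece next to the tailbud, and the center PSM is the next piece toward the somites. Each was measured on 2 arrays, so the comparison rests on 4 of the 12 arrays of the series, chosen by their labelled position and not by any measured value. All embryos were wild-type AB, grown at 23 °C to the 12-somite stage, and the tissue was cut out by hand. The other 8 arrays hold the center and the flank of the tailbud, the anterior PSM and the last formed somites, 2 arrays each. The labels place the 2 flank arrays on the left (replicate 1) and the right (replicate 2) of the tailbud. The labels call the 2 arrays of a position biological replicates, and how many embryos each array stands for is not stated in the labels used here. All 6 positions share the wild-type strain and the stage, and the labels name no treatment beyond the dissection.

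Cells leave the tailbud, enter the posterior PSM and are displaced through the center toward the anterior PSM, where somites form. In the vertebrate embryo, Wnt and FGF signals from the tailbud hold posterior cells in an immature state, while retinoic acid made by the somites acts from the other end. A segmentation clock of cycling Notch pathway genes runs in the posterior cells, and Mesp and Ripply factors place the next boundary anterior to it. The step from posterior to center PSM therefore lies between the progenitor pool and the region in which boundaries are set.

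The progenitor transcription factors *tbx16*, *tbx16l* and *msgn1*, the Wnt receptor gene *fzd10* and the Wnt target *sp5l* rose in the posterior PSM relative to the center PSM, by 3.59-fold to 6.27-fold. The homeobox genes *eve1* and *ved* rose too. The retinoic acid enzyme gene *aldh1a2* and the carboxypeptidase gene *cpn1* fell, by 4.97-fold and 3.85-fold. When no offset was added to the signals, only 11 of the 24 called probe sets kept their call. Among those lost were *aldh1a2* and *cpn1*, and also *eve1*, *ved*, *msgn1*, *tbx16l* and *nanos3*. The germ cell gene *nanos3*, the immediate early gene *jun* and *flncb* also fell. In *eve1*, *ved*, *jun* and *flncb* the lower position had signals near the added offset, so the size of their folds depends on the scale. No list of clock, FGF, boundary, Hox or muscle genes held a called gene, and the muscle lists do not include *flncb*. Only differences of 1.56 or more (log2) were called, so the lack of a call does not show that these genes were unchanged.

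Of the 15502 probe sets analysed, 10851 passed the filter on low signals. Between the posterior and the center PSM 24 of them were called, which is 0.221% of those tested, with 12 higher (0.111%) and 12 lower (0.111%) in the posterior PSM. A call is an adjusted p under 0.05 in limma's moderated test. Differences are given on the scale of log2 of the signal plus 12.2, posterior minus center, with their SE. In all 24 the 2 posterior arrays lay on one side of the 2 center arrays, where 16.9% of all genes tested lay above and 17.6% below. The calls were made on these same arrays, so the lack of overlap is no separate support. The absolute log2 difference of the 24 ran from 1.56 to 3.88. At an unadjusted p under 0.05 there were 791 probe sets (7.29%). The named probe sets among the 24 stand for 15 genes of 6834 tested (0.219%), 10 higher (0.146%) and 5 lower (0.0732%), and 8 carry no gene symbol. The number of calls depends on how the spread is estimated: 99 were called when only these 4 arrays were fitted (48 higher and 51 lower, 22 of the 24 among them). When the variances did not follow the intensity, 2 were called (1 higher and 1 lower), none of them among the 24. Without posterior replicate 1 there were 7 higher and 5 lower, without posterior replicate 2 there were 7 and 2, without center replicate 1 there were 21 and 8, and without center replicate 2 there were 8 and 4.

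The 4 arrays had median signals of 47.8 and 63.6 in the posterior PSM and 52.2 and 67.6 in the center PSM, within the range of 27.3 to 68.3 over the 12 arrays. All had been scaled to the same trimmed mean of 150, and the lowest signal on these 4 arrays was 0.9, so no marker is listed at 0. The 2 arrays of a position correlated across probe sets with r = 0.88 in the posterior PSM and r = 0.864 in the center PSM, against 0.831 to 0.968 over the 6 positions. These are correlations across probe sets, which are no independent replicates. Of the 13 genes used as PSM markers, 10 had a probe set, and their summed signal was 12242 and 9800 in the posterior PSM and 6895 and 5220 in the center PSM. Of these 10, *msgn1* and *tbx16* were called. Their means alone (5374 and 1334 in the posterior PSM, 1082 and 202 in the center PSM) differ by more than the sums do. The 10 genes had a median difference of 0.18. Both posterior arrays lay above both center arrays in 4 of them and below in 3, against 16.9% and 17.6% of all genes tested. Markers of other tissues also gave signal in both pieces. Summed epidermal markers (7 of 7 on the array) reached 7924 and 4895 in the posterior PSM and 7975 and 7335 in the center PSM. Summed endoderm and yolk markers (4 of 5 on the array) reached 8447 and 6721 in the posterior PSM and 7797 and 6750 in the center PSM. Among these 4 *sox17* was under the filter, with 4.5 and 13.5 in the posterior PSM and 71.5 and 7.1 in the center PSM. The sums therefore rest on the other members. In such pieces fewer cells of a type and less RNA per cell cannot be told apart.

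The genes that rose in the posterior PSM were led by the transcription factors of the mesodermal progenitors. *eve1*, an even-skipped related homeobox gene of the ventral and posterior embryo, had signals of 183.7 and 315.9 in the posterior PSM, against 4.1 and 13.6 in the center PSM. Both center values lie near or under the added 12.2, so the size of the 12.4-fold difference (log2 3.63 ± 0.52, limma adjusted p = 0.00178) depends on the scale and ran from 2.32 to 5.01 (log2) over the alternatives. *tbx16*, the T-box factor spadetail that lets cells leave the tailbud for the paraxial mesoderm, had 1477.1 and 1191.0 in the posterior PSM, against 215.1 and 188.6 in the center PSM. It was 6.27-fold higher in the posterior PSM (2.65 ± 0.29, adjusted p = 0.000122), and its second probe set was called too, with 381.0 and 324.0 in the posterior PSM against 48.4 and 66.7 in the center PSM (2.39, adjusted p = 0.0404). The 2 replicates of *tbx16* lay much closer to each other than the positions did.

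*tbx16l*, a related T-box gene, measured 2661.5 and 2236.0 in the posterior PSM, against 653.4 and 382.4 in the center PSM (2.26 ± 0.35, adjusted p = 0.00523). *msgn1*, the mesogenin bHLH factor that works with *tbx16* in making PSM, was the brightest of the named genes, with 6143.2 and 4604.1 in the posterior PSM and 1217.7 and 946.6 in the center PSM. It was 4.91-fold higher (2.30 ± 0.38, adjusted p = 0.00671). A second, dimmer probe set of *msgn1* also lay higher on both posterior arrays (144.7 and 155.1 in the posterior PSM, 65.3 and 71.0 in the center PSM) and was not called (1.01, adjusted p = 0.712). *ved*, a homeobox repressor of the ventral side that acts downstream of BMP, had 168.9 and 208.0 in the posterior PSM and 19.5 and 11.4 in the center PSM (2.87 ± 0.57, adjusted p = 0.0404). The posterior and center arrays of these 5 genes do not overlap, which was a condition for naming them.

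The calls in this group were not equally stable. Without the offset the brighter probe set of *tbx16* kept its call, while *eve1*, *ved*, *msgn1* and *tbx16l* lost theirs. When each of the 4 arrays was left out in turn, *tbx16* kept its call in 4 of 4 fits and *eve1* in 3 (it was lost without posterior replicate 2, adjusted p = 0.0989). *msgn1* and *tbx16l* kept theirs only without center replicate 1, and *ved* in 0 of 4, with adjusted p between 0.116 and 0.421. None of the 24 differences changed sign in any fit.

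**Figure D1:**
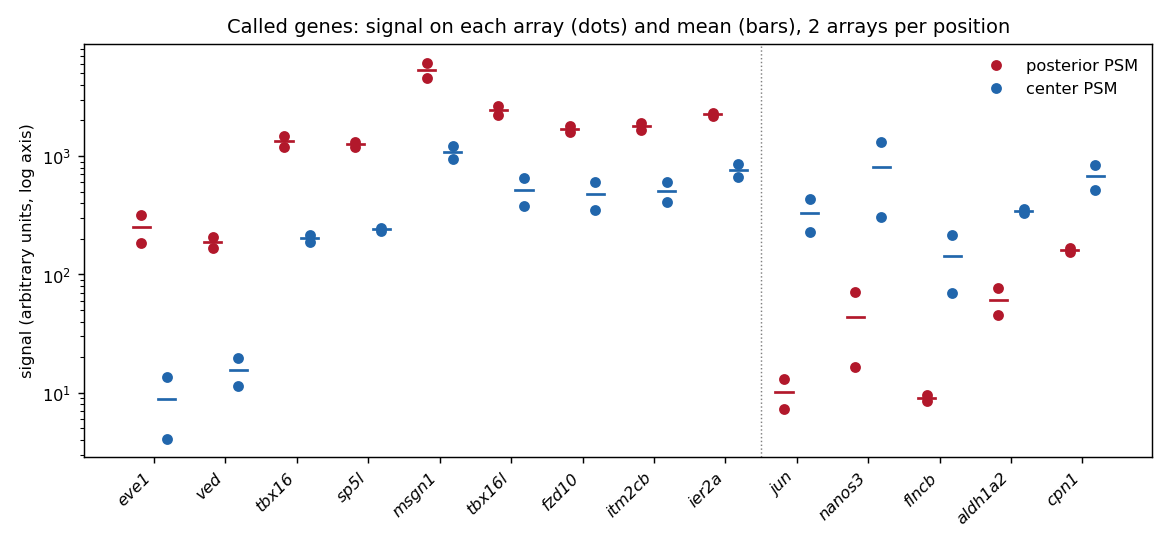
Signal (arbitrary units, log axis) of the 14 named genes called between posterior and center PSM, with 1 dot per array and a bar at the mean of the 2 arrays. The 9 genes left of the dotted line are higher in the posterior PSM and the 5 right of it lower. Only genes whose posterior and center dots do not overlap were named.

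Of the 18 tested genes in the list of tailbud and posterior PSM progenitor factors 5 rose (*eve1*, *ved*, *tbx16*, *msgn1* and *tbx16l*) and 0 fell. The median difference of the list was 1.58, against -0.01 over all genes tested. In 12 of the 18 both posterior arrays lay above both center arrays, and in 2 both lay below, where 16.9% and 17.6% of all genes tested did so. A further 4 genes on the array were under the filter. The list was drawn up with the course of these genes already known, so its counts are a description and no independent support. *cdx4*, a caudal homeobox gene of the posterior body, had 5289.5 and 3894.2 in the posterior PSM and 4090.9 and 3328.4 in the center PSM (0.30, adjusted p = 0.903). Its arrays overlap. *tbxta*, the brachyury gene of tailbud and notochord, had 184.1 and 214.2 in the posterior PSM and 81.1 and 129.9 in the center PSM, a difference of 0.87 that was not called (adjusted p = 0.645).

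In the Wnt pathway the receptor gene *fzd10* and the target *sp5l* rose. *fzd10* encodes a Frizzled receptor and had 1780.5 and 1585.1 in the posterior PSM, against 599.0 and 351.7 in the center PSM. It was 3.59-fold higher (1.84 ± 0.24, adjusted p = 0.000616), and a second probe set with 296.1 and 182.6 in the posterior PSM and 72.9 and 85.0 in the center PSM lay on the same side without a call (1.43, adjusted p = 0.369). *sp5l*, a zinc finger factor switched on by Wnt signals, had 1194.5 and 1315.0 in the posterior PSM, against 233.0 and 248.4 in the center PSM. It was 5.01-fold higher (2.32 ± 0.24, adjusted p = 0.000121), the smallest adjusted p of the comparison. Both genes kept their calls in 4 of 4 fits that left out 1 array.

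Among the 26 tested Wnt genes these 2 rose and 0 fell, and the list median was 0.23. Both posterior arrays lay above both center arrays in 9 genes and below in 4, against 16.9% and 17.6% of all genes tested. *lef1*, the nuclear partner of beta-catenin, had 74.2 and 108.3 in the posterior PSM and 28.2 and 10.3 in the center PSM (1.76, adjusted p = 0.321). *axin2*, a feedback inhibitor, overlapped between the positions, with 106.7 and 174.9 in the posterior PSM and 57.3 and 121.1 in the center PSM. *ctnnb1*, beta-catenin itself, had 2416.6 and 2420.5 in the posterior PSM and 1910.8 and 1986.2 in the center PSM (0.31, adjusted p = 0.832). The ligand gene *wnt5b*, which directs cell movement in the tail, had 126.1 and 185.8 in the posterior PSM and 38.6 and 8.4 in the center PSM and missed the threshold (2.35, adjusted p = 0.0629).

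*sp5l* did not follow the course of the other genes that rose. Its signal was 1774.0 and 2599.6 in the tailbud center, 1157.9 and 1105.9 on the flank, 1194.5 and 1315.0 in the posterior PSM, 233.0 and 248.4 in the center PSM, 1089.4 and 1143.6 in the anterior PSM and 355.1 and 615.7 in the somites. The center PSM was thus the lowest of the 6 positions, and both its arrays lay under all the others. Among genes not called at this step, the means of *wnt5b*, *her2* and *znf703* were also lowest at the center PSM. For *sp5l* the center PSM was also lower than the anterior PSM (center minus anterior -2.16, adjusted p = 0.000191). The posterior-to-center difference minus the center-to-anterior difference was 4.48 (adjusted p = 2.15e-05).

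That test of the step itself against the next one called 3 of 10851 probe sets (0.0276%, with 634 or 5.84% at an unadjusted p under 0.05). It called 1 without posterior replicate 1, 6 without center replicate 1, 0 without the intensity trend in the variances, 8 with the offset at the median and 7 without the tailbud flank. The count was 1 without the offset, 5 without the filter and 1 with the filter at the 60th percentile. The probe sets called by this test were those of *sp5l*, of *nanos3*, described further on, and of *plk3*. *plk3* encodes a polo-like kinase induced early after stimulation. It had 296.2 and 219.3 in the posterior PSM and 254.4 and 262.1 in the center PSM, which overlap, and 1555.8 and 1692.1 in the anterior PSM. The difference between its steps was 2.58 (adjusted p = 0.026). Against the preceding step, from the tailbud flank to the posterior PSM, limma called 0 probe sets, with 756 (6.97%) at an unadjusted p under 0.05. That count was 1 without the offset, 4 without the filter and 1 with variances that did not follow the intensity, and 2 without posterior replicate 1, 1 without posterior replicate 2 and 1 without center replicate 2. The neighbouring steps themselves had 14 calls from flank to posterior PSM (0.129%, with 1031 or 9.5% at an unadjusted p under 0.05) and 23 from center to anterior PSM (0.212%, with 767 or 7.07%).

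**Figure D2:**
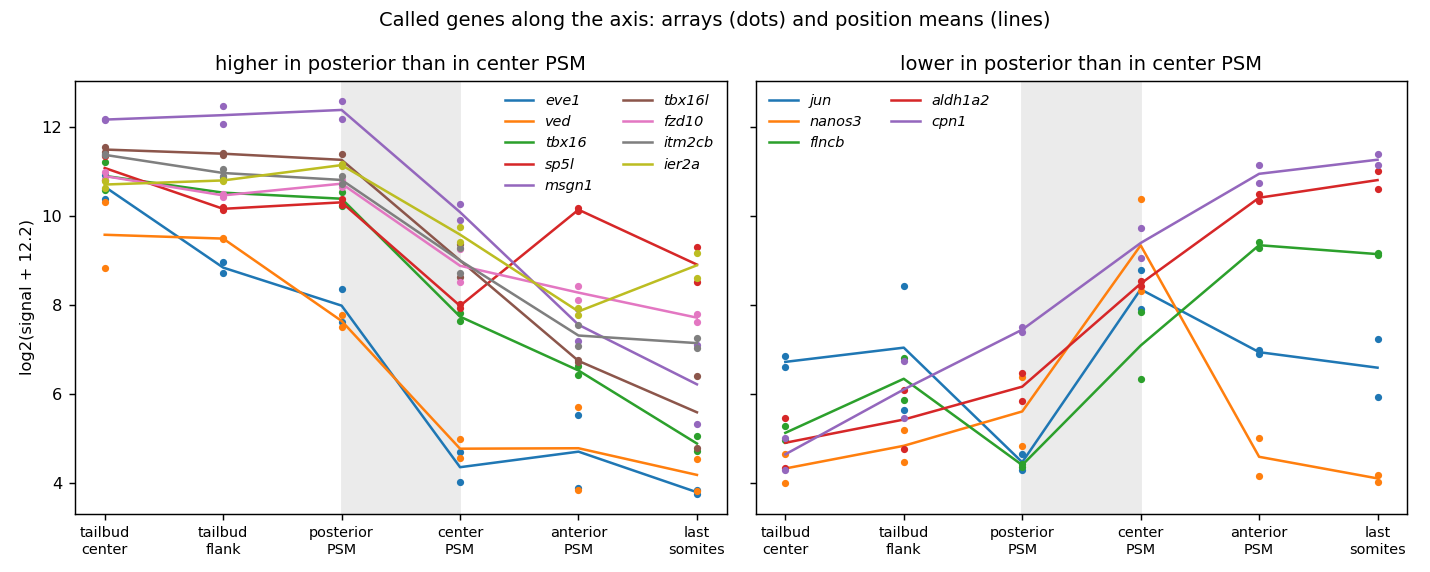
Level of the 14 named genes along the 6 positions, as log2 of the signal plus 12.2, with 1 dot per array and a line through the position means; the shaded band is the step from posterior to center PSM. *tbx16*, *msgn1* and *tbx16l* are high through the posterior PSM and lower at every later position, *sp5l* is lowest at the center PSM, and the means of *nanos3* and *jun* are highest there.

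The remaining genes higher in the posterior PSM have less familiar roles in this tissue. *itm2cb*, an integral membrane protein of the BRICHOS family, had 1903.6 and 1665.7 in the posterior PSM, against 608.5 and 410.2 in the center PSM. It was 3.50-fold higher (1.81 ± 0.23, adjusted p = 0.000616). *ier2a*, an immediate early response gene, had 2296.6 and 2198.7 in the posterior PSM, against 666.2 and 852.2 in the center PSM, a 2.95-fold difference (1.56 ± 0.21, adjusted p = 0.00126). Both kept their calls in 4 of 4 fits that left out 1 array. A placeholder gene, sb:cb81, was 3.25-fold higher and a probe set without a symbol 3.64-fold higher.

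Among the genes that fell, *aldh1a2* encodes the enzyme that makes retinoic acid in the somites and the anterior PSM. It had 76.9 and 45.7 in the posterior PSM, against 330.4 and 359.8 in the center PSM, which makes it 4.97-fold lower in the posterior PSM (-2.31 ± 0.42, adjusted p = 0.017). The positions did not overlap, yet the call was lost in each of the 4 fits that left out 1 array (adjusted p from 0.072 to 0.339). *cpn1*, a carboxypeptidase gene, had 168.9 and 155.8 in the posterior PSM, against 835.0 and 520.9 in the center PSM (-1.95 ± 0.37, adjusted p = 0.0244). The call of *cpn1* was lost under median centring, without the offset and with the filter at the 60th percentile. *flncb*, a filamin that links actin to the membrane in muscle, had 8.5 and 9.5 in the posterior PSM, both under the added 12.2, and 215.8 and 69.2 in the center PSM (-2.68 ± 0.47, adjusted p = 0.0143). *cpn1* was called in 0 of the 4 fits that left out 1 array and *flncb* in 1, and *flncb* also lost its call under quantile normalization and in the fit of the 4 arrays alone.

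All 3 of these genes went on to higher levels anteriorly. *aldh1a2* reached 1279.2 and 1418.4 in the anterior PSM and 2051.4 and 1539.0 in the somites. *cpn1* reached 2247.0 and 1710.4 in the anterior PSM, and *flncb* 605.5 and 670.7. The center PSM lay between the posterior and the anterior PSM in each. On the tailbud flank *flncb* was above its posterior values, with 100.5 and 46.3 (flank minus posterior 1.94, limma adjusted p = 0.17). The center-to-anterior difference of *aldh1a2* was -1.93 and missed the threshold (adjusted p = 0.065).

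The other genes of the retinoic acid list did not pass the test, so 1 of 18 fell and 0 rose, with a list median of 0.10. *cyp26a1*, which degrades retinoic acid in the tailbud, had 304.8 and 370.4 in the posterior PSM and 204.5 and 5.2 in the center PSM (2.50, adjusted p = 0.202). Its 2 center replicates differed widely, and both posterior arrays lay above them. *rarga*, a retinoic acid receptor, had 674.2 and 708.4 in the posterior PSM and 332.1 and 345.5 in the center PSM (1.00, adjusted p = 0.369). *nr2f5*, a COUP-TF type nuclear receptor without a settled ligand, had 641.6 and 478.2 in the posterior PSM and 1100.8 and 1000.4 in the center PSM (-0.91, adjusted p = 0.447). Neither gene overlapped between the positions. Both posterior arrays lay above both center arrays in 6 of the 18 genes and below in 7, against 16.9% and 17.6% of all genes tested. At an unadjusted p under 0.05 in limma's test 2 of the list were higher and 5 lower (209 and 251 of 6834 over all genes).

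The calls at this step were set against the other 8 arrays, as tailbud center and flank minus anterior PSM and somites. This comparison shares no array with the posterior and center PSM but shares the estimate of the spread, and it was added after the results were seen. There 1389 probe sets were called (12.8%), 659 higher (6.07%) and 730 lower (6.73%) on the tailbud side. Of the 24, 22 (91.7%) were called the same way, all 12 that rose and 10 of the 12 that fell, and they make up 1.58% of the 1389. The exceptions were *jun* (0.12, adjusted p = 0.914) and *nanos3* (0.23, adjusted p = 0.834). The number was lower when any posterior or center array was left out. Fewer probe sets were then called at the step, except without center replicate 1, and the cause was not tested.

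*nanos3* encodes an RNA-binding protein of primordial germ cells, which travel to the gonad and are no part of the paraxial mesoderm. It had 16.5 and 70.9 in the posterior PSM, against 1316.7 and 304.0 in the center PSM (-3.73 ± 0.76, adjusted p = 0.0444). At the other 4 positions all 8 values lay between 3.9 and 24.5. It was the one gene called higher in the center PSM than in both neighbours (center minus anterior 4.75, adjusted p = 0.007), and its step difference was -8.48 (adjusted p = 0.0188). No gene was called higher in the posterior PSM than in both of its neighbours. The 2 center replicates of *nanos3* lay far apart, and the call was lost without center replicate 1 and without either posterior array. It was also lost without the offset, without the filter and with variances free of the intensity trend. The filter used the mean over all arrays, so the high center signals of *nanos3* helped it to be tested. Whether it would pass a filter that leaves out the center arrays was not tested.

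In a list of germ cell genes, added after these values were seen, 1 of 10 tested genes fell and 0 rose, and the list median was 0.05. Both center arrays lay above both posterior arrays in 2 of the 10 and below in 1, against 17.6% and 16.9% of all genes tested. The differences in the list ran from -3.73 (*nanos3*) to 1.58. *dnd1*, which protects germ cell transcripts, had 153.4 and 101.0 in the posterior PSM and 701.0 and 252.8 in the center PSM (-1.67, adjusted p = 0.155). *ddx4*, the germ line helicase vasa, was under the filter, with 40.3 and 10 in the posterior PSM and 140.1 and 5.3 in the center PSM. *tdrd7a*, a tudor domain gene of the germ granules picked after its values were seen, was also under the filter and was not tested, with 4.4 and 6.4 in the posterior PSM and 192.1 and 104.9 in the center PSM, without overlap. The filter left out 8 genes of the list. The summed signal of the 10 tested genes was 818 and 864 in the posterior PSM, 2623 and 1160 in the center PSM and 509 to 915 on the other 8 arrays. Of these sums *nanos3* alone made up 16.5 and 70.9 in the posterior PSM and 1316.7 and 304.0 in the center PSM. The part of germ cells in the *nanos3* difference was not tested.

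*jun*, a subunit of the AP-1 factor that is induced within minutes of stimulation, had 13 and 7.3 in the posterior PSM, against 228.2 and 432.2 in the center PSM (-3.88 ± 0.66, adjusted p = 0.0109). Both posterior values lie near or under the added 12.2, and the difference ran from -5.01 to -2.61 over the alternatives. A second probe set lay the same way with 5.9 and 10.7 in the posterior PSM and 44.3 and 98.6 in the center PSM (-1.96, adjusted p = 0.62). The course of the first *jun* probe set was uneven: 37.9 and 334.6 on the left and right flank, 106.7 and 114.8 in the anterior PSM, and the posterior PSM lowest of all. The call was kept only without center replicate 1 (adjusted p up to 0.31 in the other fits).

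In the immediate early list 1 of 30 genes rose (*ier2a*) and 1 fell (*jun*), and the list median was -0.42. Both center arrays lay above both posterior arrays in 13 genes and below in 2, against 17.6% and 16.9% of all genes tested. *fosab*, a partner of Jun, overlapped between the positions, with 110.7 and 186.4 in the posterior PSM and 166.8 and 246.4 in the center PSM. *klf6a*, a zinc finger factor, had 97.1 and 26.8 in the posterior PSM and 240.9 and 240.4 in the center PSM (-1.95, adjusted p = 0.237). The 2 calls of the list thus have opposite signs.

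Just outside the threshold, 14 probe sets had an adjusted p between 0.05 and 0.1, 11 of them higher in the posterior PSM and 8 with a symbol. The highest adjusted p among the calls was 0.0478 and the lowest among the others 0.0509. *her2*, a hairy-related bHLH repressor, had 138.2 and 141.3 in the posterior PSM and 3.9 and 8.4 in the center PSM (3.06, adjusted p = 0.0622). *znf703*, a zinc finger repressor, had 428.9 and 451.4 in the posterior PSM and 67.9 and 182.8 in the center PSM (1.86, adjusted p = 0.0629). *sox2*, which marks neural and neuromesodermal progenitors, had 118.8 and 320.2 in the posterior PSM and 6.8 and 30.3 in the center PSM (2.88, adjusted p = 0.0817). *qkia*, an RNA-binding protein of developing muscle, lay the other way with 1237.7 and 941.1 in the posterior PSM and 2373.2 and 2139.2 in the center PSM (-1.05, adjusted p = 0.0817). None of these overlapped between the positions, where 16.9% of all genes tested lay above and 17.6% below in the posterior PSM without overlap. They were picked by an adjusted p from these same arrays, so this is no separate support.

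Hox genes of groups 9 to 13 give trunk and tail their regional identity, and limma called 0 of 15 tested, with 5 higher and 0 lower at an unadjusted p under 0.05. Over all genes tested 209 were higher and 251 lower at that unadjusted level. In 9 of the 15 both posterior arrays lay above both center arrays and in 0 below (16.9% and 17.6% over all genes), and the median was 0.24. *hoxc11a* had 823.8 and 544.1 in the posterior PSM and 257.6 and 166.4 in the center PSM (1.64, adjusted p = 0.0629). *hoxd11a* had 870.4 and 754.0 in the posterior PSM and 373.1 and 231.7 in the center PSM (1.42, adjusted p = 0.0629). *hoxb9a* lay close at both positions, with 1252.3 and 1239.6 in the posterior PSM and 1080.5 and 1209.7 in the center PSM. Among 20 Hox genes of groups 1 to 8 limma made 0 calls (4 higher and 1 lower at an unadjusted p under 0.05), with both posterior arrays above in 7, both below in 1 and a median of 0.14. *hoxc8a*, of that set, overlapped at 2770.5 and 1686.0 in the posterior PSM and 1996.7 and 1917.9 in the center PSM.

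In the FGF list limma called 0 of 19 genes, and the list median was 0.03. At an unadjusted p under 0.05, 3 were higher and 1 lower, against 209 and 251 of 6834 over all genes. Both posterior arrays lay above both center arrays in 4 genes and below in 5, against 16.9% and 17.6% of all genes tested. The ligand gene *fgf8a*, made in the tailbud, had 73.2 and 233.4 in the posterior PSM and 31.7 and 11.4 in the center PSM (2.17, adjusted p = 0.207). Of its targets, *dusp6*, a phosphatase that limits MAP kinase signalling, had 1612.4 and 1192.7 in the posterior PSM and 1031.9 and 892.7 in the center PSM (0.53, adjusted p = 0.552). *etv5b*, an ETS factor, had 2485.4 and 2105.5 in the posterior PSM and 2257.8 and 1874.3 in the center PSM (0.15, adjusted p = 0.947), with overlap. The feedback targets *spry4* (1.31, adjusted p = 0.369) and *il17rd* (0.595, adjusted p = 0.706) were higher in the posterior PSM by more than these and were not called. The list ran from -1.88 for the receptor gene *fgfr4* to 2.17 for *fgf8a*. *fgfr4* had 64.9 and 160.1 in the posterior PSM and 364.5 and 465.7 in the center PSM (adjusted p = 0.575).

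The Notch pathway and segmentation clock list had 0 calls by limma among 23 genes and a median of 0.19. At an unadjusted p under 0.05, 5 were higher and 4 lower, against 209 and 251 of 6834 over all genes. Both posterior arrays lay above both center arrays in 8 genes and below in 5, against 16.9% and 17.6% of all genes tested. The clock gene *her1* had 364.9 and 366.9 in the posterior PSM and 343.7 and 209.5 in the center PSM (0.43, adjusted p = 0.936). *her7*, its partner, had 467.4 and 276.0 in the posterior PSM and 210.6 and 234.2 in the center PSM (0.67, adjusted p = 0.865). The cycling ligand gene *dlc* overlapped, with 646.0 and 781.6 in the posterior PSM and 801.9 and 482.4 in the center PSM. All 3 transcripts oscillate in the PSM of the living embryo. *hes6*, a clock component that does not cycle, had 2810.0 and 2349.5 in the posterior PSM and 1759.2 and 756.2 in the center PSM (1.15, adjusted p = 0.208). *hey1*, a Notch target, lay the other way with 100.3 and 173.0 in the posterior PSM and 264.8 and 354.6 in the center PSM (-1.14, adjusted p = 0.431).

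In the anterior PSM and somite boundary list limma called 0 of 22 genes, and the median was -0.26. At an unadjusted p under 0.05, 4 were higher and 6 lower, against 209 and 251 of 6834 over all genes. Both center arrays lay above both posterior arrays in 11 genes and below in 5, against 17.6% and 16.9% of all genes tested. *tbx6*, the T-box factor that positions the boundary in zebrafish, had 357.2 and 250.9 in the posterior PSM and 820.8 and 902.0 in the center PSM (-1.49, adjusted p = 0.321). *mespba*, a bHLH factor of the forming somite, had 5.7 and 56.2 in the posterior PSM, 128.4 and 181.6 in the center PSM and 2504.8 and 1768.1 in the anterior PSM. Its posterior-to-center difference was -2.24 (adjusted p = 0.321), and its signal was highest one position further on. *dmrt2a*, which keeps somites symmetric, had 69.2 and 114.7 in the posterior PSM and 296.0 and 275.8 in the center PSM (-1.55, adjusted p = 0.15). Neither *tbx6* nor *dmrt2a* overlapped between the positions.

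In the BMP and TGF-beta list *ved* rose and 0 of 34 genes fell, and the median was -0.11. Both posterior arrays lay above both center arrays in 7 genes and below in 7, against 16.9% and 17.6% of all genes tested. *vox*, the homeobox gene that acts with *ved*, had 886.9 and 795.9 in the posterior PSM and 340.3 and 428.8 in the center PSM, without overlap and without a call (1.11, adjusted p = 0.141). *id1*, a general BMP target, overlapped at 1822.1 and 1449.0 in the posterior PSM and 2114.5 and 1447.9 in the center PSM. *vox* and *ved* are also members of the progenitor list.

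The 2 muscle lists, which do not hold *flncb*, had 0 calls at this step. Among 9 myogenic transcription factors limma called 0, also 0 at an unadjusted p under 0.05, with a median of -0.38, and *myf5*, the first myogenic factor of the PSM, overlapped at 807.0 and 529.7 in the posterior PSM and 534.5 and 367.6 in the center PSM. *myod1* had 82.0 and 14.7 in the posterior PSM and 84.4 and 108.3 in the center PSM (-1.10, adjusted p = 0.88). Among 22 sarcomere genes and chaperones limma called 0, and the median was 0.00. At an unadjusted p under 0.05, 1 was higher and 2 lower, against 209 and 251 of 6834 over all genes. The titin gene *ttn.2* had 17.1 and 4.6 in the posterior PSM and 116.4 and 42.2 in the center PSM (-1.91, adjusted p = 0.166). *actc1a*, an actin gene, had 1427.8 and 1521.4 in the posterior PSM and 2916.5 and 2550.9 in the center PSM (-0.88, adjusted p = 0.896). The muscle chaperone gene *hsp90aa1.1* had 1568.9 and 1518.1 in the posterior PSM and 3350.4 and 2436.4 in the center PSM (-0.88, adjusted p = 0.909). In these 3 genes both center arrays lay above both posterior arrays. Over the 22 genes both center arrays lay above in 5 and below in 3, against 17.6% and 16.9% of all genes tested. The highest difference in the list was 1.615. The spread behind the adjusted p of *ttn.2*, *actc1a* and *hsp90aa1.1* is pooled over all 6 positions.

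**Figure D3:**
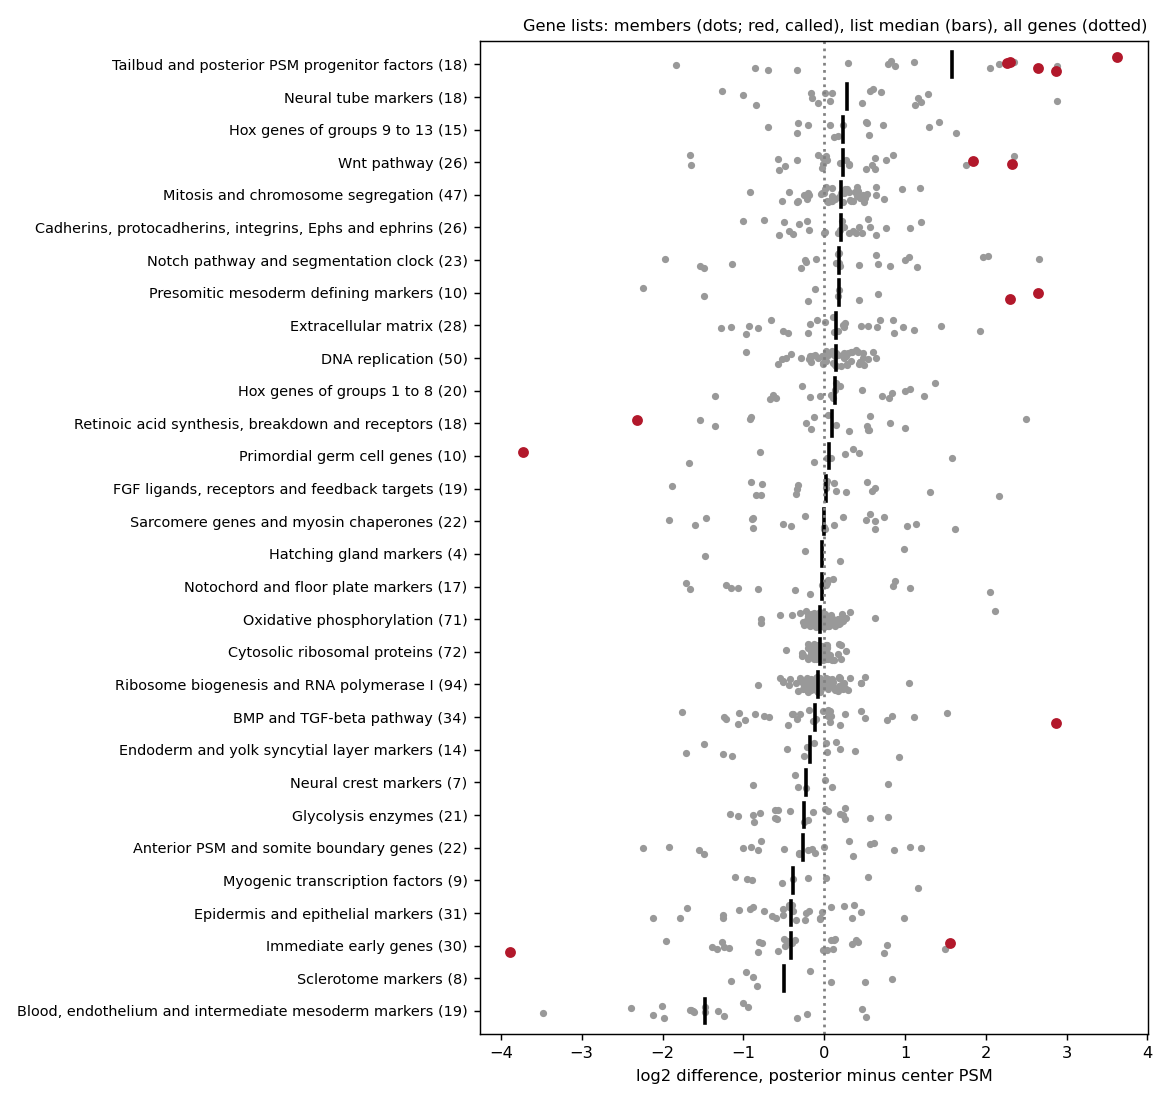
Log2 difference, posterior minus center PSM, of every tested member of 30 gene lists (dots, called genes in red), with the list median as a bar and the median of all genes as a dotted line; the number tested is in brackets. The progenitor list has the highest median, 1.58, and the blood, endothelium and intermediate mesoderm list the lowest, -1.47.

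Markers of neighbouring tissues were read at the same step. The lowest list median, -1.47, belonged to blood, endothelium and intermediate mesoderm, where limma called 0 of 19 genes, and 0 were higher and 10 lower at an unadjusted p under 0.05 (209 and 251 of 6834 over all genes). Both center arrays lay above both posterior arrays in 12 genes and below in 1, against 17.6% and 16.9% of all genes tested. *hbae3*, an embryonic globin gene, had 45.6 and 274.7 in the posterior PSM and 712.4 and 2846.7 in the center PSM (-3.48, adjusted p = 0.366). *tal1*, a factor of blood precursors, had 50.6 and 30.2 in the posterior PSM and 150.7 and 253.3 in the center PSM. The erythroid factor *gata1a* had 50.1 and 83.3 in the posterior PSM and 303.8 and 281.7 in the center PSM. Of 7 defining markers of blood and endothelium 5 were on the array, and they summed to 292 and 439 in the posterior PSM and 1033 and 1528 in the center PSM, and in all 5 the center arrays lay above. The 8 arrays of the other positions had sums from 214 to 1442. The part of this tissue in the genes that fell was not tested.

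The sums of the other tissues overlapped between the positions. Notochord markers summed to 346 and 549 in the posterior PSM and 154 and 435 in the center PSM, and neural tube markers to 714 and 1631 in the posterior PSM and 621 and 881 in the center PSM. Neural crest markers summed to 208 and 253 in the posterior PSM and 130 and 217 in the center PSM, and somite muscle markers to 212 and 162 in the posterior PSM and 182 and 428 in the center PSM. The 2 defining markers of the hatching gland had no matching probe set, and the longer hatching gland list had 4 genes. Among 31 epidermal genes limma called 0 (0 higher and 2 lower at an unadjusted p under 0.05), the median was -0.41, and both center arrays lay above in 11 and below in 2 (17.6% and 16.9% over all genes). *krt4*, a surface keratin, had 1543.6 and 871.3 in the posterior PSM, against 1746.4 and 1562.5 in the center PSM (-0.51, adjusted p = 0.935), without overlap. *sox3*, a neural progenitor factor that overlapped between the positions, had 213.2 and 519.6 in the posterior PSM and 324.8 and 430.8 in the center PSM. Posterior replicate 2 was above replicate 1 in *sox2*, *sox3*, *noto* and *fgf8a*, and the median signal of its whole array was also higher (63.6 against 47.8). The markers *foxa2* (33.8 and 16.1) and *pax6a* (27.3 and 3.9), both under the filter, lay the other way. A share over all genes was not taken. *noto*, a notochord homeobox gene, had 75.4 and 205.7 in the posterior PSM and 4.7 and 53.2 in the center PSM. The lists for neural tube (18 genes, median 0.28), neural crest (7, -0.23), notochord and floor plate (17, -0.03), sclerotome (8, -0.50), endoderm and yolk (14, -0.17) and hatching gland (4, -0.02) had 0 calls each by limma. At an unadjusted p under 0.05 each held 0 to 2 genes per direction.

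**Figure D4:**
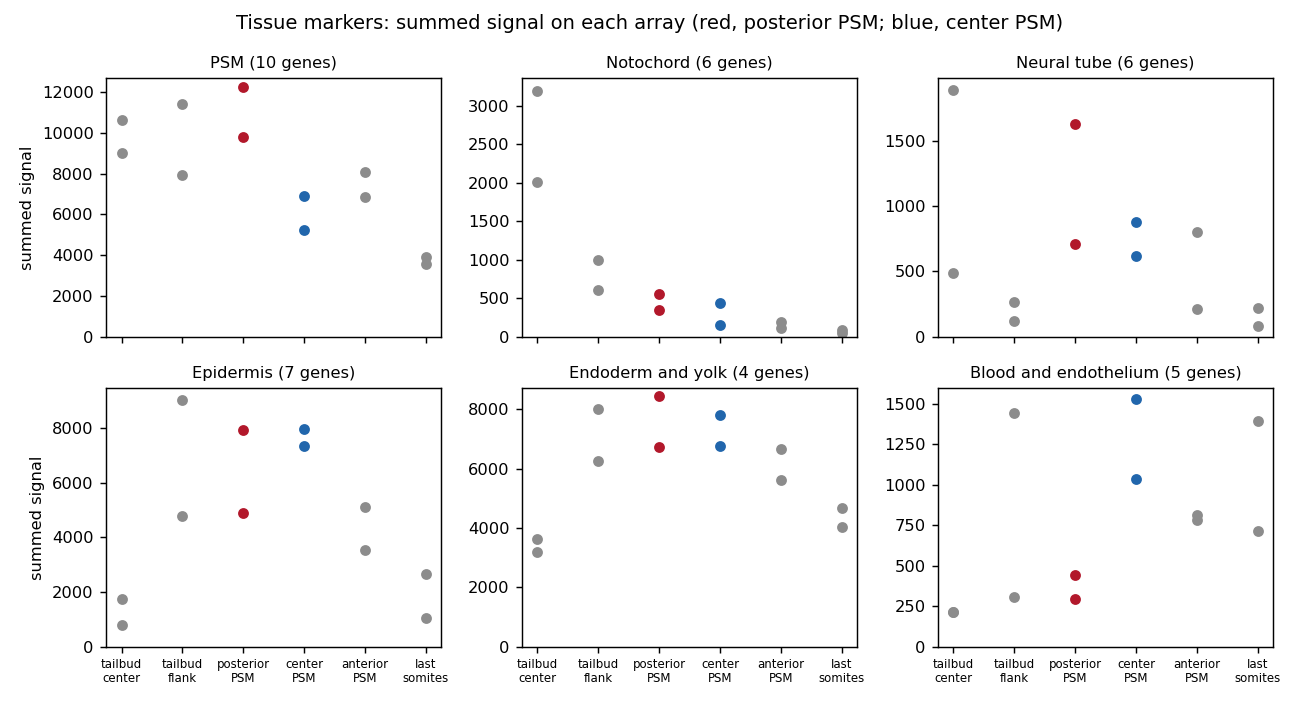
Summed signal (arbitrary units) of the defining marker genes of 6 tissues on each of the 12 arrays along the 6 positions, 1 dot per array, with posterior PSM in red and center PSM in blue. The blood and endothelium sums are 292 and 439 in the posterior PSM and 1033 and 1528 in the center PSM, while the epidermis and the endoderm and yolk sums overlap between these positions.

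Among 50 DNA replication genes limma called 0 (1 higher and 0 lower at an unadjusted p under 0.05) and the median was 0.14, with both posterior arrays above both center arrays in 16 and below in 4. Among 47 mitosis genes it called 0 (3 higher and 0 lower unadjusted) and the median was 0.21, with 20 above and 4 below. Over all genes 16.9% lay above and 17.6% below, and 209 of 6834 were higher and 251 lower at an unadjusted p under 0.05. The mitotic cyclin gene *ccnb1* had 586.6 and 523.8 in the posterior PSM and 390.7 and 390.2 in the center PSM (0.49, adjusted p = 0.648). The medians of ribosome biogenesis (94 genes, -0.07), ribosomal proteins (72, -0.05) and oxidative phosphorylation (71, -0.05) lay near that of all genes, with 0 calls each by limma and 0 to 2 genes per direction at an unadjusted p under 0.05. The median of all probe sets was -0.01 as deposited and 0.08 under median centring, and with that centring these 3 medians turned to 0.01, 0.04 and 0.04, the notochord median to 0.06 and the hatching gland median to 0.07. Glycolysis enzymes had 0 calls by limma among 21, also 0 unadjusted, and a median of -0.25. The ribosomal protein gene farthest from 0 was *rpl36a*, with 2870.5 and 2413.2 in the posterior PSM and 3524.8 and 3808.7 in the center PSM (-0.48, adjusted p = 0.601).

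Adhesion and matrix genes also had 0 calls by limma. At an unadjusted p under 0.05, 2 adhesion genes were higher and 0 lower, and 4 matrix genes were higher and 2 lower. Over all genes 209 of 6834 were higher and 251 lower at that level. The 26 cadherins, protocadherins, integrins, Ephs and ephrins had a median of 0.21, and *cdh2*, N-cadherin, had 2621.3 and 2723.3 in the posterior PSM and 2387.2 and 1959.6 in the center PSM (0.30, adjusted p = 0.886). *epha4a*, an Eph receptor of the segmental boundary, had 201.0 and 160.4 in the posterior PSM and 97.4 and 64.3 in the center PSM (1.07, adjusted p = 0.487). The 28 matrix genes had a median of 0.15. The 2 fibronectin genes differed in pattern: *fn1a* had 396.7 and 411.8 in the posterior PSM and 267.5 and 175.3 in the center PSM (0.86, adjusted p = 0.492), while *fn1b* overlapped at 1102.7 and 1009.6 in the posterior PSM and 1650.3 and 895.7 in the center PSM. *efemp2b*, a fibulin, had 396.8 and 226.0 in the posterior PSM and 976.9 and 562.9 in the center PSM (-1.27, adjusted p = 0.269).

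Of the 8 called probe sets without a gene symbol 7 fell, with differences between -3.24 and -2.16. The brightest had 558.5 and 549.6 in the posterior PSM, against 3402.8 and 1851.1 in the center PSM (-2.16, adjusted p = 0.0404). It was the single probe set of the 24 also called at the preceding step (flank minus posterior -3.41, adjusted p = 0.00107), and it reached 8276.1 and 11035.4 in the somites. Of these 7, the one with the smallest adjusted p had 147.0 and 72.4 in the posterior PSM, against 799.7 and 450.8 in the center PSM (-2.40, adjusted p = 0.00523). It was also called at the next step (center minus anterior -1.88, adjusted p = 0.0421). Of the 24, 7 were called at the next step. Called the opposite way there were *sp5l* (-2.16) and *nanos3* (4.75). Called the same way, beside the probe set just described, were *msgn1* (2.53, adjusted p = 0.00374), *tbx16l* (2.26, adjusted p = 0.00678), *itm2cb* (1.69, adjusted p = 0.00211) and *ier2a* (1.72, adjusted p = 0.000594). Neighbouring steps share the arrays of 1 position, so these values stand side by side and are no separate evidence. *tbx16* itself differed by 1.21 at the next step and was not called there (adjusted p = 0.105).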

How the data were processed

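Transcript levels were measured on 12 Affymetrix Zebrafish arrays, 2 for each of 6 tissue positions, from biotin-labelled cRNA, per the labels. The deposited values are 1 intensity per probe set on a linear scale, the MAS5 signal per the submitters' processing notes, which name no version. Checked on the values, the mean trimmed by 2% at each end was 150 on every array. The table holds no detection calls, so a low signal is not called absent.

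The table has 15617 probe sets, 115 of them controls that were dropped. In the platform annotation 10795 of the remaining 15502 have a single symbol, 135 have several and 4572 have none. Values were analysed as log2(signal + 12.2), the offset being the 25th percentile of all values. The offset shrinks differences at low signals. The 4651 probe sets with a 12-array mean under the 30th percentile were removed, which left 10851 to test. The model of 6 position means used limma 3.58.1 under R 4.3.3 and variances that follow the intensity (6 residual and 12.8 prior degrees of freedom) and Benjamini-Hochberg adjustment over all tested probe sets. All tests were two-sided. Each mean rests on 2 arrays, which limits the precision. The p-values rest on the spread between arrays of the same position, pooled over the 6 positions and drawn toward the intensity trend. The 2 flank arrays come from different sides of the tailbud, so side is mixed into that spread. In the fit without the flank 34 probe sets were called between posterior and center PSM, 22 of the 24 among them.

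A gene stands for its tested probe set of highest mean. Named were up to 15 called genes per direction whose higher position mean exceeded 97.3, the median signal tested, without clone placeholders, genes called above or below both neighbouring positions, genes called for a difference between steps, and called and up to 3 central members of each list. The gene lowest at the center PSM and a few further list members were chosen after their values were seen. The members and the 30 lists were chosen with earlier results of these data known. The procedure was run on simulated data. Their values were drawn normally around a single mean per probe set, and changes were put into the posterior PSM alone. The real outer positions differ in many probe sets, so the simulation does not show how reliable the calls here are. Same-numbered replicates did not deviate together (correlations of deviations between -0.071 and 0.085 over the position pairs), so the numbers were not used to pair arrays.

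The alternatives changed the scaling (quantile normalization or median centring), the offset (none or the median), the filter (none or the 60th percentile), the variances (no trend with intensity), the weights of arrays, the block (replicate number) and the probe sets (averaged per gene). Others fitted the 4 arrays alone, dropped the tailbud flank or dropped each of the 4 arrays in turn, when the single array remaining at that position is taken to vary like those elsewhere.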

Additional observations from a re-analysis of the deposited data

How the results depend on the processing

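None of the 24 called probe sets changed direction under any alternative: of 374 comparisons 260 kept the call, 114 lost it and 0 were reversed. The 12 higher and 12 lower calls became 7 and 5 without the offset and 1 and 1 with variances free of the intensity trend. They became 16 and 18 without the tailbud flank and 48 and 51 in the fit of the 4 arrays alone. The lower calls were 6 with the filter at the 60th percentile and 5 with 1 value per gene. Leaving out 1 of the 4 arrays gave 7 to 21 higher and 2 to 8 lower. The 3 calls for the step against the next one became 1 without the offset, 8 with the offset at the median, 5 without the filter, 1 with the stricter filter, 0 without the intensity trend, 7 without the tailbud flank and 1 to 6 with 1 array left out. The 0 calls against the preceding step became 1 without the offset, 4 without the filter, 1 without the intensity trend and 0 to 2 with 1 array left out. The 22 calls shared with the outer positions became 11 without the offset, 0 without the intensity trend, 13 with 1 value per gene and 8 to 19 with 1 array left out. With the replicate number as a block there were 13 higher and 14 lower calls, holding all 24, and 5 and 8 calls in the step comparisons against the next and the preceding step. The deviations of posterior and center arrays of the same number correlated at 0.057. The fit of the 4 arrays alone gives no step comparisons. The cause of these changes was not tested, except that each fit with 1 array left out holds fewer arrays. With 2 arrays per position, only differences of 1.56 or more (log2) were called, and the median SE was 0.51.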
